A study of Mus musculus with 54 samples.

Results

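The 7 genes described here are Olig1, Olig2, Sox10, Pdgfra, Cspg4, Gpr17 and Nkx2-2, a set of oligodendrocyte precursor genes in which Olig2 also marks progenitor cells of hedgehog-driven medulloblastoma. They were chosen by name, as genes of the lineage, from 53379 gene identifiers, and each matched a single Ensembl identifier. Earlier results of these data were known when they and the gene lists set beside them were chosen. The unstranded read counts of each numbered sample were followed across 6 groups of 3 libraries each. The groups were SmoA1 tumours after 1 Gy of radiation, SmoA1 tumours after sham treatment, Ptc het tumours after 1 Gy, Ptc het tumours after sham treatment, and normal BL6 cerebellum (C57BL/6 mice) after 1 Gy or sham treatment, all taken at 5 h. SmoA1 mice carry an activated form of Smoothened, and their strain is labelled SmoA1 homo. Ptc het mice lack 1 copy of the hedgehog receptor gene Ptch1, and the strain given for their tumours is C57BL/6, the same as for normal cerebellum. RNA came from whole tissue, so that fewer cells of a type and less RNA per cell cannot be told apart. The labels give no age and do not say whether numbered samples came from separate animals, so that the p-values cover no more than the scatter among these samples, which may be technical.

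Oligodendrocytes, the cells that make myelin, arise from precursors that divide in response to platelet-derived growth factor. Olig1 and Olig2 are basic helix-loop-helix transcription factors that bind DNA at E-boxes, and Olig2 is needed for the lineage to form. Sox10 is an HMG-box transcription factor that acts with them and later activates myelin genes. Nkx2-2 is a homeodomain factor that promotes differentiation, and in the ventral neural tube both Olig2 and Nkx2-2 are induced by Sonic hedgehog. Pdgfra encodes the receptor for platelet-derived growth factor A and is also made by fibroblasts. Cspg4 encodes the proteoglycan NG2, which is also carried by pericytes of small vessels. Gpr17 is a G protein-coupled receptor of precursors that are committed to differentiate.

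Promoters are shown for the 3 members whose counts differed between SmoA1 tumour and BL6 cerebellum, from 250 bases before to 50 bases after the gene start in RefSeq on GRCm38.p6, with E-boxes in capitals. The table held 4 of the 7 members. The Pdgfra window is chr5:75152001-75152300 on the plus strand, the Olig2 window chr16:91225300-91225599 on the plus strand and the Nkx2-2 window chr2:147186353-147186652 on the minus strand. The Nkx2-2 window lies inside the span of the gene as counted, which on that strand begins at 147194243. It therefore need not be the promoter of all transcripts counted.
Pdgfra: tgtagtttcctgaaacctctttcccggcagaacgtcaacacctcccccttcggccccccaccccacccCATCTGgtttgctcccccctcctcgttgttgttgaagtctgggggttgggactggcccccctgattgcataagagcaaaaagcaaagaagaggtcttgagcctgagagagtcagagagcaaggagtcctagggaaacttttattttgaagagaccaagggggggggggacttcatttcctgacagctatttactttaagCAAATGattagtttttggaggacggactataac
Olig2: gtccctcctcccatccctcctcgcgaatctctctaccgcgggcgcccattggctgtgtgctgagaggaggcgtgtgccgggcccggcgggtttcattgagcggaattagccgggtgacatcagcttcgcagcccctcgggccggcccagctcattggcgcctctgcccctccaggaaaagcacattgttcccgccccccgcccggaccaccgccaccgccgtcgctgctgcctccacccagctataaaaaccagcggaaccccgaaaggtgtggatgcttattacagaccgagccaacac
Nkx2-2: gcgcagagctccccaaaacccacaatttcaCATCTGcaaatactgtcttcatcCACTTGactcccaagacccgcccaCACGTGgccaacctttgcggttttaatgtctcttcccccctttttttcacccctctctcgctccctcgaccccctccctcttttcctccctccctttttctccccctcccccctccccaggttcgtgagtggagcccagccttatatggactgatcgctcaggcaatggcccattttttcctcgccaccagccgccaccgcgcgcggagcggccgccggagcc
The E-box was searched as CANNTG, which reads the same in form on both strands, and 72.3% of the 32851 mouse promoters of this length hold at least 1. The Pdgfra window held 2, the Nkx2-2 window held 3 and the Olig2 window held 0. The SOX letters AACAAT, searched on both strands and present in 10.7% of promoters, occurred once in the Olig2 window and in neither of the others. The GLI letters GACCACCCA, likewise searched on both strands and present in 0.253% of promoters, occurred in none of the windows shown. The Olig2 window was 65% G and C with 25 CpG dinucleotides and the Nkx2-2 window 59.7% with 17, while the Pdgfra window, at 51% with 5, lay near the medians of all promoters (52.7% and 7). These matches describe letters and say nothing about binding.

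On GRCm38, Olig2 (ENSMUSG00000039830) lies on chromosome 16 from 91225457 to 91228677 on the plus strand, and Olig1 (ENSMUSG00000046160) lies nearby from 91269772 to 91271933 on the same strand. Pdgfra (ENSMUSG00000029231) lies on chromosome 5 from 75152292 to 75198215 and Cspg4 (ENSMUSG00000032911) on chromosome 9 from 56865033 to 56899870, both on the plus strand. On the minus strand lie Sox10 (ENSMUSG00000033006, chromosome 15, 79154908 to 79165240), Gpr17 (ENSMUSG00000052229, chromosome 18, 31942997 to 31949636) and Nkx2-2 (ENSMUSG00000027434, chromosome 2, 147177546 to 147194243). Exons of other genes cover 278 exonic bases of Nkx2-2, where the antisense gene Nkx2-2os lies, 652 of Pdgfra, 188 of Gpr17 and 157 of Olig1. Olig2, Sox10 and Cspg4 share no exonic base with another gene.

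The SmoA1 and BL6 libraries held 540652 to 842997 counts in genes and the Ptc libraries 34124031 to 51330146, a median depth 61.9 times greater. In the shallower 12 libraries, reads over genes of the plus strand fell almost wholly in one strand column (99.12% to 99.38%) and reads over genes of the minus strand in the other, so that the strand of the RNA cannot be told there and antisense reads cannot be separated. In Ptc a single column held 94.37% to 95.04% of strand-assigned counts over all genes. The other column held 2.81% to 3.44% of those over protein-coding genes of the plus strand. For protein-coding genes of the minus strand it held 2.95% to 3.48%. The range of levels also differed: the 95th percentile of protein-coding genes with a count, in CPM (counts scaled to library depth) per kb of exon, was 66.1 times the 5th in SmoA1, 53 times in BL6 and 7240 times in Ptc. Fold changes in SmoA1 and BL6 are therefore given as measured on a narrow scale. In these 12 libraries 70.4% to 75% of uniquely mapped reads were assigned to no gene, against 12.5% to 14.3% in Ptc. Unmapped reads made up 45.8% to 76.1% there and 2.53% to 6.16% in Ptc. The median protein-coding gene with a count stood at 10.3 CPM per kb in SmoA1 and 10.5 in BL6. Several members lay near that level, and what part background reads had in it was not tested. Scaling was done within the 12 libraries and, apart from them, within Ptc, so that a level in Ptc is not comparable with a level elsewhere. Summed CPM of 4 Y-linked genes (Ddx3y, Uty, Kdm5d and Eif2s3y) was 353.7 or more in 1 of 3 libraries of SmoA1 1 Gy, 1 of 3 of SmoA1 sham, 2 of 3 of BL6 1 Gy and 0 of 3 of BL6 sham, and at most 36.5 in the rest, and its part in the results was not tested.

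A pair of Ptc libraries stood apart. Ptc 1 Gy replicate 2 had a summed level of 1118 CPM for 7 pericyte markers, against 111.8 to 250.7 in the other Ptc libraries. For 5 fibroblast markers it had 310.8 CPM, against 57.01 to 131.6 in the others. It also had 2444 CPM for 16 other oligodendrocyte precursor markers, against 454.3 to 1356 in the others. For 11 genes of committed and newly formed oligodendrocytes it had 824.6 CPM, against 400.6 to 537. Ptc sham replicate 2 had 4076 CPM for 16 myelin genes, against 198.8 to 955.7 in the others, and 185.5 CPM for 7 proliferation markers, against 1268 to 2219. Both had high levels of 6 astrocyte markers, at 3799 and 3532 CPM, while the other 4 lay between 336.2 and 1314. Changes in Ptc after 1 Gy are given with and without these libraries.

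Set against exon length, the members took the same order in both tumour models. In SmoA1 the mean over 6 libraries was highest for Olig1 (17.9 CPM per kb), followed by Pdgfra (15.8), Olig2 (15.4), Sox10 (13.6), Cspg4 (11.4), Gpr17 (10.6) and Nkx2-2 (7.74). Ptc followed that order over a far wider range, with 73.3 CPM per kb for Olig1, 25 for Pdgfra, 15.2 for Olig2, 12.6 for Sox10, 5.08 for Cspg4, 3.97 for Gpr17 and 1.32 for Nkx2-2. In BL6 the order was Olig1 (14.6 CPM per kb), Nkx2-2 (12.6), Cspg4 (10.5), Gpr17 (10.2), Sox10 (9.91), Olig2 (9.79) and Pdgfra (8.39). Neighbours in each order had overlapping libraries, so the order describes means only. Pdgfra, second of the members in SmoA1 and last in BL6, and Nkx2-2, last in SmoA1 and second in BL6, exchanged places. Pdgfra stood at the 86.5th percentile of protein-coding genes in SmoA1 and the 34.6th in BL6, and Nkx2-2 stood at the 34.1st in SmoA1 and the 69.4th in BL6. Olig1 lay at the 93rd percentile in SmoA1 and the 82.6th in BL6.

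SmoA1 tumour was compared with BL6 cerebellum over both treatment arms to ask how the precursor genes differ between tumour and normal tissue. Pdgfra and Olig2 were higher in the tumours and Nkx2-2 was lower, while Olig1, Sox10, Cspg4 and Gpr17 did not pass the test. Thus 2 of 7 members were called higher and 1 lower, where 18.7% of 17505 genes were called, 8.84% higher and 9.91% lower. Calls were made with edgeR's quasi-likelihood test where the p-value, adjusted over all genes by Benjamini and Hochberg, was under 0.05. The median log2 fold change over all genes was 0.01.

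Pdgfra, the growth factor receptor, had 143.5, 153.1 and 140.5 CPM in SmoA1 1 Gy libraries and 158.5, 189.6 and 166.9 in SmoA1 sham libraries, against 80.5, 80.7 and 92.3 in BL6 1 Gy libraries and 85.7, 81.8 and 83.9 in BL6 sham libraries. Every tumour library lay above every BL6 library, with a wide gap between the lowest tumour value and the highest BL6 value. The difference was 1.88-fold (log2 fold change 0.91 ± 0.10 SE, adjusted p = 2.04e-07), resting on 726 counts in SmoA1 and 316 in BL6 over 6 libraries each. It was called in all 18 alternatives run for it, with log2 fold changes of 0.87 to 0.95. In rank by p it stood 70th of the genes tested.

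Within each library, Pdgfra was also set against another precursor gene. The ratio of Pdgfra to Cspg4 counts was 0.941 to 1.43 in SmoA1 and 0.617 to 0.721 in BL6, with no overlap. This ratio uses the same Pdgfra counts as above, so it is no separate support for the difference. Cspg4 itself, the NG2 proteoglycan, averaged 136.1 ± 16.4 CPM in SmoA1 and 124.7 ± 7.89 CPM in BL6 (SD, n = 6 each), which is 1.09-fold with a 95% interval of 0.96 to 1.25 (adjusted p = 0.408). The other genes of the growth factor pathway gave no call over both arms: 0 of 6 ligands and receptors were called, with a median log2 fold change of 0.04. The nearest were Pdgfrl, a receptor-like gene, at -0.61 (adjusted p = 0.0643) and the ligand gene Pdgfb at -0.28 (adjusted p = 0.322). Between sham groups 1 of the 6 was called, Pdgfrl, at 0.485 of the BL6 level (adjusted p = 0.0291).

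Olig2 had 24.2, 37.4 and 45 CPM in SmoA1 1 Gy libraries and 38.2, 45 and 43.7 in SmoA1 sham libraries, against 28.4, 27.5 and 29.4 in BL6 1 Gy libraries and 28, 21.9 and 13.4 in BL6 sham libraries. All tumour libraries but SmoA1 1 Gy replicate 1 lay above all BL6 libraries. The difference was 1.57-fold (log2 fold change 0.65 ± 0.21 SE, adjusted p = 0.0263), on 178 counts in SmoA1 and 93 in BL6. Counts per library were 8 to 37. The call was lost with DESeq2 (adjusted p = 0.0515) and without BL6 sham replicate 2 (0.0672), BL6 sham replicate 3 (0.0885), SmoA1 1 Gy replicate 3 (0.0587), SmoA1 sham replicate 2 (0.0581) or SmoA1 sham replicate 4 (0.0525). It held in 12 of 18 alternatives, whose adjusted p ranged from 0.00515 to 0.0885, and the fold change was above 1 in all of them.

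Nkx2-2, the differentiation factor, had 25.6, 16.9 and 11.2 CPM in SmoA1 1 Gy libraries and 31.1, 24.3 and 24.4 in SmoA1 sham libraries, against 39.5, 34.8 and 32.2 in BL6 1 Gy libraries and 43.7, 29.2 and 38.6 in BL6 sham libraries. Only SmoA1 sham replicate 1 reached into the BL6 range. The level in SmoA1 was 0.611 of that in BL6 (log2 fold change -0.71 ± 0.21 SE, adjusted p = 0.0168), on 101 counts in SmoA1 and 135 in BL6. The call held in 16 of 17 alternatives and was lost in the strand column that holds the gene's own reads (log2 fold change -0.55, adjusted p = 0.0503). Reads from Nkx2-2 and its antisense neighbour cannot be separated by strand in these libraries. The ratio of Pdgfra to Nkx2-2 counts was 5.09 to 12.5 in SmoA1 and 1.96 to 2.87 in BL6, and it restates the same counts of both genes.

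The remaining members gave smaller differences. Sox10 averaged 41.4 ± 9.65 CPM in SmoA1 and 30.2 ± 8.42 CPM in BL6 (SD, n = 6 each), which is 1.36-fold with an adjusted p of 0.14. Olig1 averaged 38.7 ± 12.4 CPM in SmoA1 and 31.6 ± 7.88 CPM in BL6, 1.22-fold with a 95% interval of 0.916 to 1.62 (adjusted p = 0.401). Olig1 lies beside Olig2 on chromosome 16, and the ratio of Olig1 to Olig2 counts was 0.741 to 1.32 in SmoA1 and 0.933 to 1.8 in BL6, which overlap. Gpr17 averaged 55.3 ± 10.5 CPM in SmoA1 and 53 ± 10.3 CPM in BL6, 1.04-fold with a 95% interval of 0.848 to 1.28 (adjusted p = 0.845). Of the 4 members with no call, Cspg4 had the narrowest interval.

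**Figure D1:**
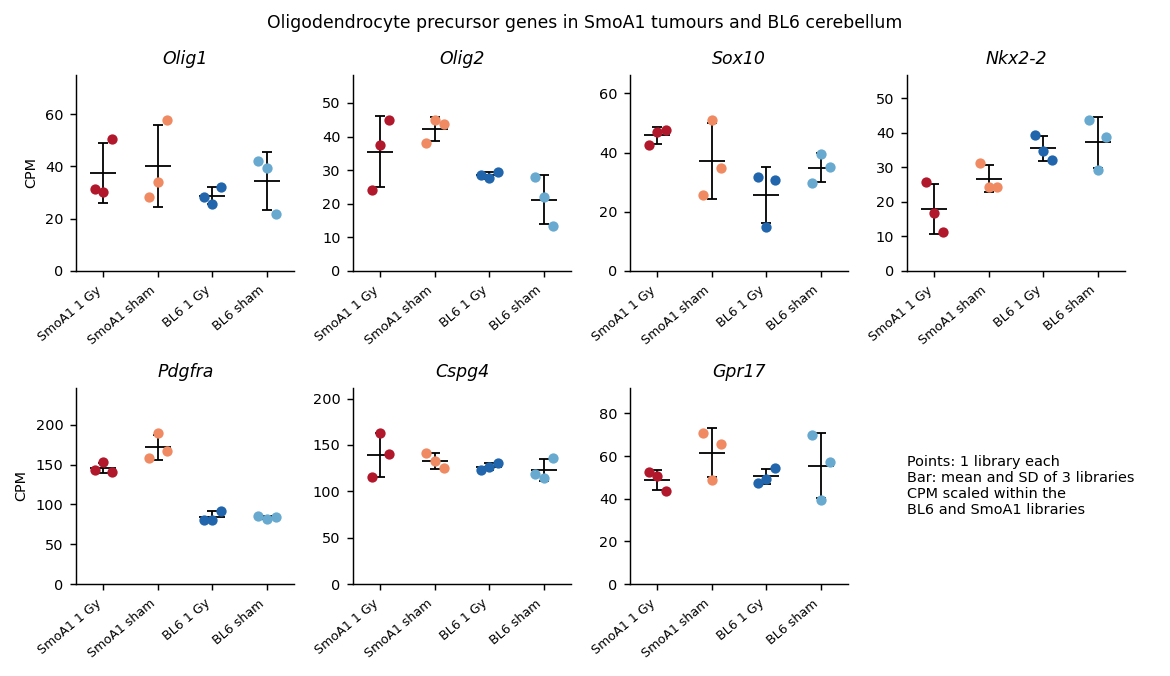
CPM of each member in the 12 SmoA1 and BL6 libraries, with 1 point per library and the mean and SD of 3 libraries per group. All 6 SmoA1 values of Pdgfra, 140.5 to 189.6 CPM, lie above all 6 BL6 values, 80.5 to 92.3 CPM, while Cspg4 and Gpr17 overlap between the models.

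The arms were then compared apart. Between sham groups, Pdgfra was 2.04-fold higher in SmoA1 (log2 fold change 1.03 ± 0.14 SE, adjusted p = 6.21e-06) and Olig2 1.99-fold higher (1.00 ± 0.28 SE, adjusted p = 0.0143), so that 2 of 7 members were called, both higher, where 16.5% of 16428 genes were called, 7.07% higher and 9.4% lower. All 3 SmoA1 sham libraries lay above all 3 BL6 sham libraries for both genes. The Olig2 call was lost with DESeq2 (adjusted p = 0.0784) and without BL6 sham replicate 3 (adjusted p = 0.0977), in which Olig2 had 8 counts. Nkx2-2 was at 0.716 of the BL6 level (adjusted p = 0.264) and Sox10 at 1.07 (adjusted p = 0.878).

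Between the groups given 1 Gy, Pdgfra alone was called, 1.7-fold higher in SmoA1 (log2 fold change 0.77 ± 0.14 SE, adjusted p = 0.000819), so that 1 of 7 members was called, where 6.92% of 16990 genes were, 4.33% higher and 2.58% lower. Nkx2-2 stood at 0.502 of the BL6 level (log2 fold change -0.995 ± 0.314 SE, adjusted p = 0.0543) and passed without SmoA1 1 Gy replicate 1 (adjusted p = 0.0224), with no filter on low counts (0.0419) and with all 12 libraries in a single fit (0.0371). Sox10 was at 1.73-fold (adjusted p = 0.0773), and all 3 SmoA1 values, 42.6 to 47.8 CPM, lay above the BL6 values, 14.7 to 31.6 CPM. Olig2 was at 1.24-fold with a 95% interval of 0.851 to 1.8 (adjusted p = 0.651). Whether the SmoA1 difference itself depended on the arm was tested as the interaction given further on, which called no member.

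**Figure D2:**
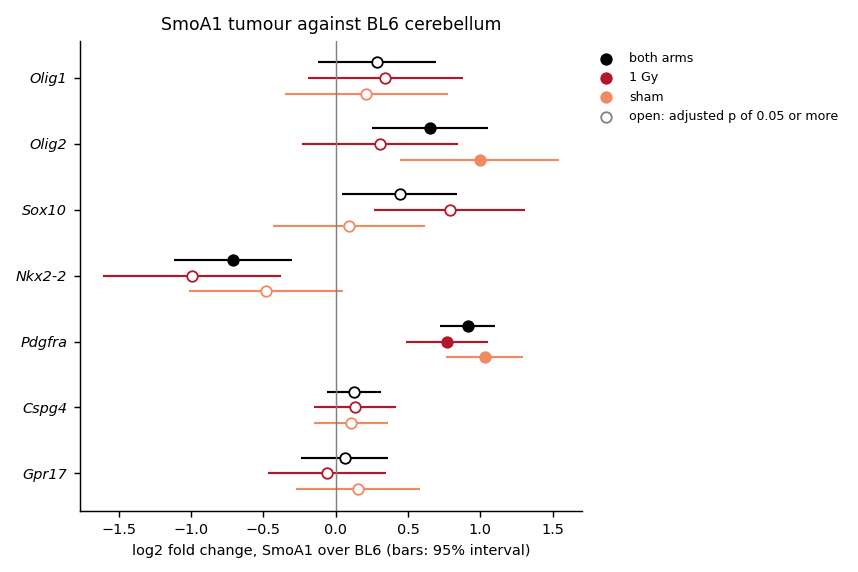
log2 fold change of each member, SmoA1 over BL6, over both arms, between 1 Gy groups and between sham groups, with 95% intervals; filled points were called at an adjusted p under 0.05. Pdgfra is called in all 3 comparisons, Olig2 over both arms and in sham, and Nkx2-2 over both arms.

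The precursor genes outside the 7 members were split. Of 16 other precursor markers, 3 were called higher in SmoA1 over both arms and 2 lower, with a median log2 fold change of 0.00. C1ql1, a secreted C1q-like protein, was 1.81-fold higher (adjusted p = 0.0108), Cacng4, a glutamate receptor auxiliary subunit, 1.49-fold (adjusted p = 0.0228) and Pcdh15, a protocadherin, 1.31-fold (adjusted p = 0.0397). Megf11, a transmembrane protein with EGF repeats, was at 0.568 of the BL6 level (adjusted p = 4.7e-06) and Luzp2 at 0.763 (adjusted p = 0.0207). C1ql1 and Megf11 were the members of this list also called between the sham groups (2.14-fold, adjusted p = 0.0175; 0.553, adjusted p = 4.92e-05), and Megf11 between the 1 Gy groups (0.576, adjusted p = 0.00101).

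Some genes of later stages of the lineage were lower in SmoA1. Of 16 myelin genes, 6 were called lower over both arms and 1 higher, with a median log2 fold change of -0.47. Mag, an adhesion protein of myelin, was at 0.526 of the BL6 level (adjusted p = 0.00073), Aspa, an enzyme that breaks down N-acetylaspartate, at 0.458 (adjusted p = 0.00171) and Mobp, a myelin protein, at 0.634 (adjusted p = 0.00689). Mbp, which encodes myelin basic protein, was 1.42-fold higher (adjusted p = 0.00333), against the direction of the list. Of 11 genes of committed and newly formed oligodendrocytes, 1 was called lower, Tmem163 at 0.647 of the BL6 level (adjusted p = 0.00148), and the median was -0.07. Between sham groups 6 of 15 myelin genes were called lower and 1 higher, with a median of -0.67. Opalin, a gene of mature oligodendrocytes, stood there at 0.144 of the BL6 level (adjusted p = 0.000282), Aspa at 0.273 (adjusted p = 5.27e-05) and Mobp at 0.442 (adjusted p = 3.45e-05), while Mbp was 1.51-fold higher (adjusted p = 0.0115). Between 1 Gy groups 0 of 16 myelin genes were called, the nearest being Mag at 0.627 (adjusted p = 0.0859).

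Transcription factors that work with the OLIG and SOX10 proteins or oppose them were called in 1 direction. Of the 14 tested, 7 were higher in SmoA1 and 0 lower, with a median log2 fold change of 0.32. Nfib and Nfia, nuclear factor I proteins, were 1.52-fold (adjusted p = 1.15e-05) and 1.62-fold higher (adjusted p = 4.75e-05). Olig3, the third OLIG factor, which is known from the dorsal hindbrain and from granule neuron progenitors rather than from oligodendrocytes, was 8.41-fold higher (adjusted p = 2.11e-05). It averaged 18.2 ± 6.05 CPM in SmoA1 1 Gy and 24.8 ± 1.93 CPM in SmoA1 sham libraries, against 0.992 ± 0.864 CPM in BL6 1 Gy and 3.79 ± 3.53 CPM in BL6 sham libraries (SD, n = 3 each), which is a few counts at most in BL6.

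Markers of other cells that express these genes were measured beside them. Of 7 pericyte markers, 0 were called over both arms, with a median log2 fold change of -0.01, and their summed level was 326.9 to 387.7 CPM in SmoA1 and 328.7 to 376 CPM in BL6. Of 5 fibroblast markers, 0 were called, with a median of 0.12 and a summed level of 229.9 to 314 CPM in SmoA1 and 239.5 to 281.5 CPM in BL6. Between 1 Gy groups 1 of the 5 was called, Dcn, which encodes a fibroblast proteoglycan and was 1.79-fold higher in SmoA1 (adjusted p = 0.00874), beside the higher Pdgfra of those groups. Of 6 astrocyte markers, 0 were called, with a median of -0.12. Some pericyte and fibroblast markers lay near the median BL6 gene (10.5 CPM per kb), such as Abcc9 at 10.3 and Col1a1 at 10.1 in BL6 sham. Others lay above or below it, such as Vtn at 19.5 and Col1a2 at 5.66. Flat levels of these markers therefore cannot show that the cells were equally abundant. Progenitor genes were higher beside Pdgfra and Olig2: 5 of 7 stem and granule neuron progenitor markers were called higher in SmoA1 and 0 lower, with a median of 0.64, among them Atoh1 (3.93-fold, adjusted p = 3.08e-05), the factor of granule neuron progenitors, and the hedgehog effector Gli1 (1.59-fold, adjusted p = 0.00312). All 7 proliferation markers were called higher, with a median of 1.83, and their summed level was 673.4 to 905.4 CPM in SmoA1 and 131.4 to 310.9 CPM in BL6. The part of these cells in the Pdgfra and Olig2 levels was not tested.

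**Figure D3:**
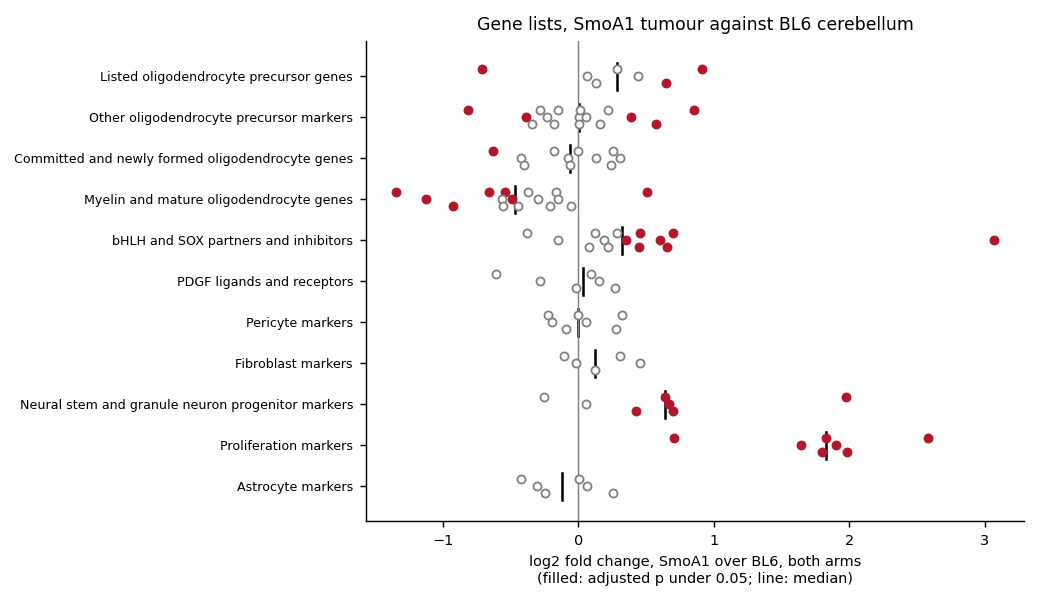
log2 fold change of each tested gene of 11 lists, SmoA1 over BL6 over both arms, with 1 point per gene, filled where called, and a line at the median of the list. The 7 members range from -0.71 (Nkx2-2) to 0.91 (Pdgfra), the 16 myelin genes have a median of -0.47 and the 7 proliferation markers of 1.83.

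Radiation of SmoA1 tumours was examined next. No member was called 5 h after 1 Gy: 0 of 7, where 2.17% of 16690 genes were called, 363 in all (2348 at an unadjusted p under 0.05, and 225 by DESeq2). Pdgfra came closest, at 0.846 of the sham level (log2 fold change -0.24 ± 0.12 SE, edgeR unadjusted p = 0.0612, adjusted p = 0.386). Its 95% interval of 0.717 to 0.998 rests on a normal quantile and is narrower than the test implies. It therefore does not set the level apart from sham. The 3 Pdgfra values after 1 Gy, 140.5 to 153.1 CPM, all lay below the 3 sham values, 158.5 to 189.6 CPM. For no other member did the arms stand apart. How many of all genes stood apart in this way was not counted, so the separation is not read as a response. Nkx2-2 was at 0.673 (adjusted p = 0.491), Gpr17 at 0.798 (adjusted p = 0.509), Olig2 at 0.838 (adjusted p = 0.716) and Sox10 at 1.22 (adjusted p = 0.672).

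Among related lists in SmoA1, 0 of 16 other precursor markers were called (median log2 fold change 0.13), 0 of 11 committed genes (-0.02), 0 of 14 transcription factor partners (-0.10), 0 of 6 growth factor genes (0.04), 0 of 6 pericyte markers tested (-0.01), 0 of 7 progenitor markers (-0.24), 0 of 7 proliferation markers (-0.20) and 0 of 6 astrocyte markers (0.12). Of 15 myelin genes tested, 14 had a log2 fold change above 0 and 1 below, with a median of 0.415. Opalin was the sole call among them and rose 4.94-fold (adjusted p = 0.0446). It had 20.2 ± 6.05 CPM after 1 Gy and 4.14 ± 5 CPM in sham libraries (SD, n = 3 each). Its sham libraries, at 1.22 to 9.91 CPM, hold few reads of it. The same sham libraries gave the low values of Opalin and of the myelin list against BL6 sham, so these results are not independent. Dcn rose 2.29-fold (adjusted p = 0.0177) and was the sole call of 5 fibroblast markers. The median over all genes was -0.02.

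In BL6 cerebellum no member was called after 1 Gy, 0 of 7, where 0.0126% of 15918 genes were called, 2 in all (634 at an unadjusted p under 0.05, and 1 by DESeq2). Pdgfra was at 1.02 of the sham level with a 95% interval of 0.812 to 1.27, and Cspg4 at 1.03 with an interval of 0.859 to 1.25. Olig2 was at 1.35 with an interval of 0.877 to 2.09 and Sox10 at 0.754 with an interval of 0.509 to 1.12. None of the 10 other lists held a call. A change within those intervals could not be told from no change in these samples.

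The change after 1 Gy in SmoA1 was set against that in BL6 as an interaction over 12 libraries. It was called for 0 of 7 members, where 1.06% of 18188 genes were called, 193 in all (2044 at an unadjusted p under 0.05, and 101 by DESeq2). Sox10 had an interaction of 0.70 ± 0.39 SE on the log2 scale (adjusted p = 0.518) and Olig2 of -0.68 ± 0.40 SE (adjusted p = 0.547), where the log2 fold change of Olig2 was -0.26 in SmoA1 and 0.44 in BL6. Pdgfra had an interaction of -0.26 ± 0.19 SE (adjusted p = 0.687).

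In Ptc tumours the members had 48 to 20551 counts per library, and libraries of a group lay far apart. No member was called after 1 Gy, 0 of 7, and 0.0% of 19571 genes were called by edgeR (1421 at an unadjusted p under 0.05, and 318 by DESeq2). Olig1 had 46.1, 515.5 and 106.8 CPM after 1 Gy, against 118.8, 61.9 and 101.1 CPM in sham libraries. The high value is that of Ptc 1 Gy replicate 2, and the fold of 2.37 (95% interval 0.749 to 7.51, adjusted p = 0.744) turned to a log2 fold change of -0.30 without that library and of -0.53 without both libraries numbered 2. Olig2, its neighbour, had 19.9, 47.2 and 37.4 CPM after 1 Gy, against 45.6, 20.4 and 60.5 CPM in sham libraries (log2 fold change -0.28, and -0.89 without both libraries numbered 2). The ratio of Olig1 to Olig2 counts was 10.9 in Ptc 1 Gy replicate 2 and 1.67 to 3.03 in the other Ptc libraries.

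Pdgfra had 210.1, 313.6 and 199.2 CPM after 1 Gy of Ptc tumours, against 479.2, 59.5 and 239.4 CPM in sham libraries. Its highest and lowest values both belonged to sham, an 8.05-fold range, the lowest being Ptc sham replicate 2 with its high myelin and low proliferation genes. The log2 fold change was -0.11, and -0.82 without both libraries numbered 2. Cspg4 had 27.9, 179.6 and 55.5 CPM after 1 Gy, against 50.4, 17.6 and 32.3 CPM in sham libraries. Its log2 fold change was 1.39 ± 0.73 SE (adjusted p = 0.702). It was 0.32 without Ptc 1 Gy replicate 2, the library with high pericyte, fibroblast and other precursor markers, and 0.01 without both libraries numbered 2. Whether pericytes, fibroblasts or precursor cells had a part in the levels of Ptc 1 Gy replicate 2 was not tested.

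Sox10 had 8.53, 77.6 and 65.8 CPM after 1 Gy of Ptc tumours, against 32.1, 25.1 and 21.1 CPM in sham libraries, so that both the lowest and the highest libraries belonged to the 1 Gy group (log2 fold change 0.96 ± 0.72 SE, adjusted p = 0.762, and 0.48 without both libraries numbered 2). Gpr17 had 8.27, 37.5 and 7.51 CPM after 1 Gy, against 37.6, 13.3 and 19.5 CPM in sham libraries (log2 fold change -0.40 ± 0.73 SE, and -1.86 without both libraries numbered 2). Nkx2-2 had 1.03, 3.99 and 4.72 CPM after 1 Gy, against 3.43, 5.71 and 3.89 CPM in sham libraries (log2 fold change -0.42 ± 0.62 SE, and -0.35 without both libraries numbered 2). Ptc 1 Gy replicate 1 was the lowest of all Ptc libraries for Olig1, Olig2, Sox10 and Nkx2-2. It was also the only Ptc library with Y-linked expression, at 276.8 summed CPM against at most 0.0305 in the others.

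**Figure D4:**
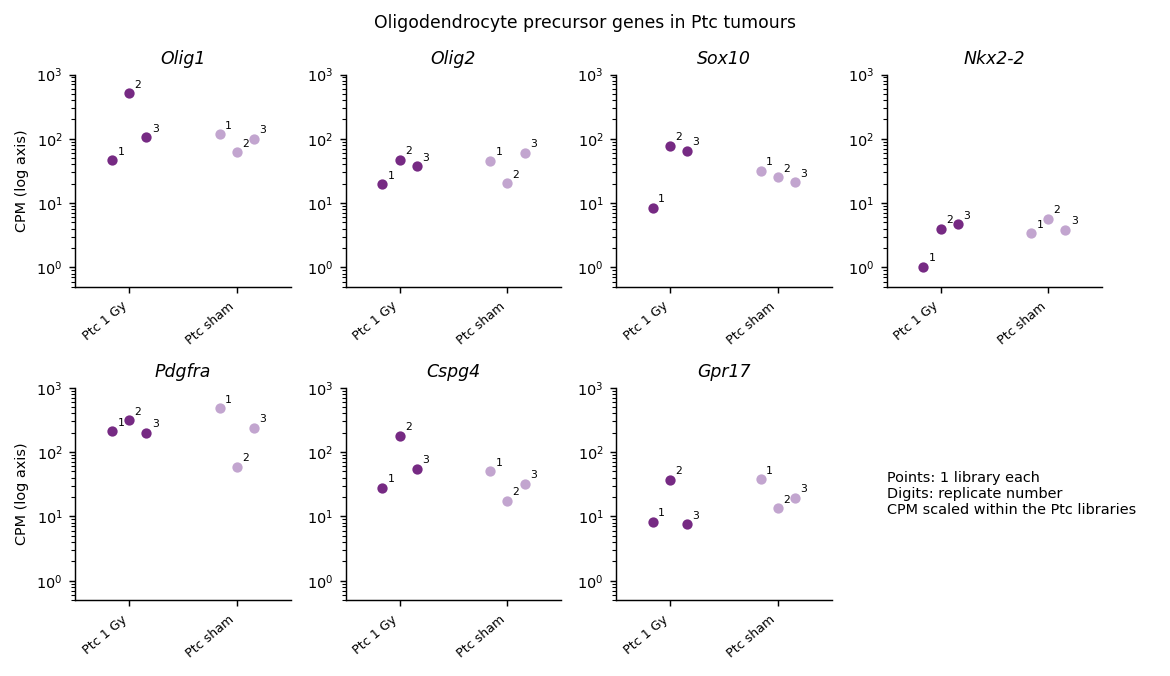
CPM on a log axis of each member in the 6 Ptc libraries, 1 Gy left of sham, with replicate numbers beside the points. Ptc 1 Gy replicate 2 is the highest library for Olig1 (515.5 CPM), Sox10 (77.6 CPM) and Cspg4 (179.6 CPM), and the arms overlap for all members.

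Ptc tumours had no call in any other list after 1 Gy. The median log2 fold change was 0.64 for 16 other precursor markers, 0.32 for 11 committed genes, -1.41 for 16 myelin genes, -0.06 for 15 transcription factor partners, 0.95 for 6 growth factor genes, 1.48 for 7 pericyte markers, 0.41 for 5 fibroblast markers, -0.19 for 7 progenitor markers, 0.50 for 7 proliferation markers and 0.01 for 6 astrocyte markers, against 0.00 over all genes. Without both libraries numbered 2 there was likewise no call, and the median was -0.25 for the other precursor markers, 0.28 for committed genes, -0.05 for myelin genes, -0.50 for transcription factor partners, 0.20 for growth factor genes, 0.07 for pericyte markers, -0.51 for fibroblast markers, -0.34 for progenitor markers, -0.13 for proliferation markers and -0.05 for astrocyte markers, against 0.02 over all genes. The myelin and pericyte medians lay near that of all genes once both were left out. Both libraries had been singled out by their levels in these lists, so leaving them out is no test of these medians. The highest summed myelin level was that of Ptc sham replicate 2 and the highest pericyte level that of Ptc 1 Gy replicate 2.

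**Figure D5:**
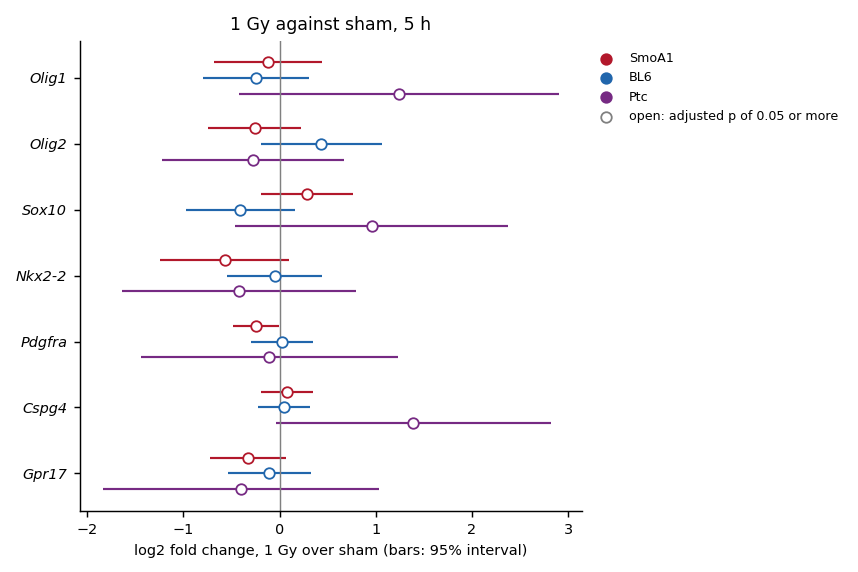
log2 fold change of each member, 1 Gy over sham at 5 h, in SmoA1, BL6 and Ptc, with 95% intervals. No member is called in any of the 3, and the Ptc intervals, such as that of Olig1 with a fold of 0.749 to 7.51, are the widest.

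The genes whose levels ran most like Olig2 differed between the library sets. Over the 12 SmoA1 and BL6 libraries, among 16098 protein-coding genes averaging 5 CPM or more, the highest Pearson r of log2 CPM were those of Gm12355 (0.945), Ddx21 (0.936), Smg8 (0.93), Ackr2 (0.93) and Dmrta1 (0.922). Pdgfra had an r of 0.727 with Olig2 and ranked 432nd, Olig1 0.579, Cspg4 0.357, Sox10 0.22, Gpr17 0.076 and Nkx2-2 -0.6. Over the 6 Ptc libraries, among 11840 genes, they were Timm21 (0.988), D430042O09Rik (0.979), Ap3m1 (0.975), Hes6 (0.968), a basic helix-loop-helix factor of neural progenitors, and Haus3 (0.967). There Pdgfra had an r of 0.67, Olig1 0.639, Gpr17 0.613, Cspg4 0.569, Sox10 0.516 and Nkx2-2 0.38. These values describe libraries that share model, arm and depth, and no gene was among the first 5 in both sets. The genes named first are the highest of 16098 correlations over 12 libraries and of 11840 over 6. An r of that height can arise by chance among so many.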

How the data were processed

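Total RNA from SmoA1 and Ptc het tumours and BL6 cerebellum was extracted with RNeasy and depleted of ribosomal RNA, per the labels' protocols. Each deposited file lists raw counts of reads for every gene, without strand and for either strand, laid out as STAR writes them. The submitters' processing notes name mm10 and Cell Ranger 5.0.1, and no aligner is named. The 54 files make 18 libraries: the 4 files of a BL6 or SmoA1 sample differed by less than the sampling noise (variance to mean ratio 0.857 to 0.938 over genes with at least 40 counts) and were summed and counted as 1 sample. GENCODE M21 on GRCm38 gave symbols for 53274 of 53379 identifiers.

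The unstranded counts were filtered with filterByExpr, scaled by TMM and tested with the quasi-likelihood test of edgeR 4.0.16 in R 4.3.3 over all genes, adjusted by Benjamini and Hochberg. CPM were scaled within the 12 SmoA1 and BL6 libraries and within Ptc. Intervals are 95% and, for folds, come from the standard error. Likeness used log2 CPM with a prior count of 2. Scripts were tested on simulated data. The members, the 10 other lists and most alternatives were chosen with earlier results of these data known. All members were named in each comparison, and from each other list at most 3 called genes in each direction, taken by p, or at most 2 where none was called. Some of these are left out between the arms and in the interaction. Alternatives were DESeq2 1.42.0, RLE factors, no low-count filter, strand columns, a replicate block, 12 libraries in a single fit, and libraries left out. The column of the gene's own reads was added after seeing the data. Figures were drawn with matplotlib 3.10.9.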

Additional observations from a re-analysis of the deposited data

Results flagged for a closer look

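The change of the proliferation marker Mki67 after 1 Gy differed between SmoA1 tumour and BL6 cerebellum, with an interaction of -1.19 on the log2 scale (edgeR adjusted p = 0.0374). It averaged 160.6 ± 11 CPM in SmoA1 1 Gy and 199.3 ± 29.3 CPM in SmoA1 sham libraries, and 61.4 ± 22.6 CPM in BL6 1 Gy and 34 ± 7.92 CPM in BL6 sham libraries (SD, n = 3 each). Mki67 belongs to a list measured beside the precursor genes, and none of the 7 members differed in this way.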

How the results depend on the processing

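Of the member values recomputed under settings other than leaving out 1 library, 297 kept direction and side of the threshold, 4 gained a call, 4 lost it and 6 changed sign; with 1 library left out the numbers were 343, 1, 6 and 28. No member with a call changed sign. The sign changes were in comparisons that gave the member no call, and the cause was not tested. Counts of 8 to 37 per library limit Olig2, and all intervals and p-values cover these samples only. The strand column with the larger total holds no reads of Sox10, Gpr17 and Nkx2-2 to speak of in SmoA1 and BL6, so they have no value there.

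For SmoA1 against BL6 over both arms, genes called numbered 3282, with 5696 when no filter was used and 1702 in the strand column with the larger total. Between sham groups 2705 genes became 1727 by DESeq2, 4422 with no filter and 1447 in that strand column, and the 2 members called became 1 by DESeq2 and 1 to 2 with 1 library left out. Between 1 Gy groups 1175 genes became 702 by DESeq2, 2235 with no filter and 612 in the strand column, and the 1 member called became 2 with no filter, 2 with 12 libraries in a single fit and 1 to 2 with 1 library left out. For 1 Gy in SmoA1, 363 genes became 225 by DESeq2, 969 with no filter, 174 in the strand column, 766 with 12 libraries and 109 to 445 with 1 library left out. For 1 Gy in BL6, 2 genes became 1 by DESeq2, 16 with no filter, 0 in the strand column, 1 with 12 libraries and 0 to 6 with 1 library left out. For 1 Gy in Ptc, 0 genes became 318 by DESeq2 and 1 with no filter. Interaction calls of 193 became 101 by DESeq2, 449 with no filter, 79 in the strand column and 83 to 291 with 1 library left out. In Ptc, Olig1 changed sign to -0.53 without both libraries numbered 2, and list medians without them were chosen after seeing the data.

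Same-numbered samples did not deviate together, with correlations of -0.0407 to 0.19, and not every sample correlated best with its own number, so the numbers are not taken as pairs. With the number as a replicate block, members called between sham groups fell to 1 (Olig2 at an adjusted p of 0.176) and between 1 Gy groups numbered 3, with Nkx2-2 at 0.011 and Sox10 at 0.0412. Genes called under the replicate block numbered 551 for 1 Gy in SmoA1, 7 for 1 Gy in BL6 and 70 for the interaction. Log2 fold changes that changed sign under the block were -0.377 for Olig1 between sham groups, -0.0229 for Pdgfra, 0.0373 for Gpr17 and 0.167 for Nkx2-2 after 1 Gy in BL6, and 0.242 for Pdgfra after 1 Gy in Ptc.

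With 1 library left out, log2 fold changes that crossed 0 ranged as follows. For SmoA1 against BL6 over both arms, Gpr17 lay between -0.0627 and 0.14. Between sham groups, Olig1 lay between -0.135 and 0.404, Sox10 between -0.207 and 0.297 and Gpr17 between -0.0602 and 0.362, and between 1 Gy groups Gpr17 between -0.109 and 0.0187. After 1 Gy in SmoA1, Olig1 lay between -0.386 and 0.237 and Cspg4 between -0.0583 and 0.185. After 1 Gy in BL6, Pdgfra lay between -0.045 and 0.0562, Cspg4 between -0.014 and 0.128, Gpr17 between -0.327 and 0.0915 and Nkx2-2 between -0.219 and 0.0799. After 1 Gy in Ptc, Olig1 lay between -0.296 and 1.7, Olig2 between -0.635 and 0.0678, Pdgfra between -0.599 and 0.684 and Gpr17 between -1.57 and 0.106. In the interaction, Olig1 lay between -0.154 and 0.492 and Cspg4 between -0.122 and 0.148.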
